A study of Mus musculus with 12 samples.

Results

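The 10 genes described here encode proteins of the intercalated disc, the junction that joins heart muscle cells end to end. They were taken by symbol from a table of 33641 gene symbols: the gap junction genes *Gja1*, *Gja5* and *Gjc1*, the desmosome genes *Dsp*, *Dsg2*, *Dsc2*, *Pkp2* and *Jup*, and the adherens junction genes *Cdh2* and *Ctnna3*. All 10 were found, with 46 transcript rows between them, and all 10 passed the filter on low values (1 TPM or more in 3 or more of the 12 libraries). That filter left 13158 genes for testing.

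Gap junctions are channels built from connexins that let current pass between neighbouring cells, and they set how fast excitation spreads through the ventricle. Desmosomes carry mechanical load: the cadherins desmoglein and desmocollin bridge the gap between cells, and plakoglobin, plakophilin and desmoplakin tie them to the desmin filaments inside. Adherens junctions join the actin of adjacent cells through N-cadherin and the catenins, and in the mammalian heart desmosomal and adherens proteins mix in a hybrid junction called the area composita. Loss of desmosomal proteins is a known cause of arrhythmogenic cardiomyopathy, and connexins and cadherins are known to be remodelled in failing and infarcted hearts.

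RNA was measured in whole myocardium of 12 male wild-type C57BL/6 mice, 3 in each of 4 groups. Mice underwent sham surgery or surgery that produced a myocardial infarction (MI). From 2 weeks after surgery they received vehicle or prednisone, a synthetic glucocorticoid, injected into the abdomen once a week at lights-on at 1 mg/kg for 6 weeks, and tissue was collected 24 hours after the final dose. The labels put the animals at about 10 weeks of age in the treatment protocol and about 16 weeks in the sample description. The groups are called sham vehicle, sham prednisone, MI vehicle and MI prednisone below, all of the same strain and sex, and each library comes from a different mouse. The labels do not give the size of the infarct or say whether scar, border or remote muscle was taken. In such bulk samples, fewer cells of a type and less RNA per cell cannot be told apart.

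Values are TPM, which correct for transcript length and express each gene as a share of its library. The number of reads per library is not known, so no counting error can be given. Between 11690 and 14307 genes reached 1 TPM per library, and mitochondrially encoded RNA took from 21.6% to 42.0% of the TPM. Ventricular muscle was present throughout, with *Myl2* (ventricular myosin light chain) between 7857 and 15609 TPM. MI vehicle replicate 3 stood apart, with its median gene 0.74 higher on the log2 scale than the mean of sham vehicle. Changes are differences of log2(TPM + 1), which understate the change of low genes, tested with limma across all 12 libraries, and a gene was called at a Benjamini-Hochberg adjusted p under 0.05 over all 13158 genes.

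In infarcted hearts of prednisone-treated mice, most of the intercalated disc genes were lower than in sham hearts given the same drug. Of the 10 genes, 6 fell and none rose: *Gja1*, *Dsp*, *Dsg2*, *Dsc2*, *Cdh2* and *Ctnna3*, by 0.65 to 1.43 on the log2 scale. Of all genes tested in that comparison, 14.1% were called lower and 2.73% higher. The median change was -0.73 over the 10 and -0.058 over all genes. In 8 of the 10 every MI mouse was below every sham mouse, against 32.2% of all genes. After a correction for transcript length, described with the lengths of the genes, 2 of the 10 (*Dsg2* and *Ctnna3*) were still called, against 7.98% of all genes, and the median of the 10 was -0.49.

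Under vehicle no disc gene passed the threshold on the TPM scale. In MI against sham under vehicle, 0 of the 10 were called by limma, against 16% of all genes, and 3 (*Gjc1*, *Dsg2* and *Jup*) had an unadjusted p under 0.05. Their median change was 0.026, while the median of all genes was 0.39. Setting each library to a common median (median-ratio rescaling) removes that general shift, and the median of the 10 then stood at -0.42. On that scale *Dsg2* was called lower in MI (-0.79, limma adjusted p = 0.0463), against 3.22% of all genes.

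**Figure D1:**
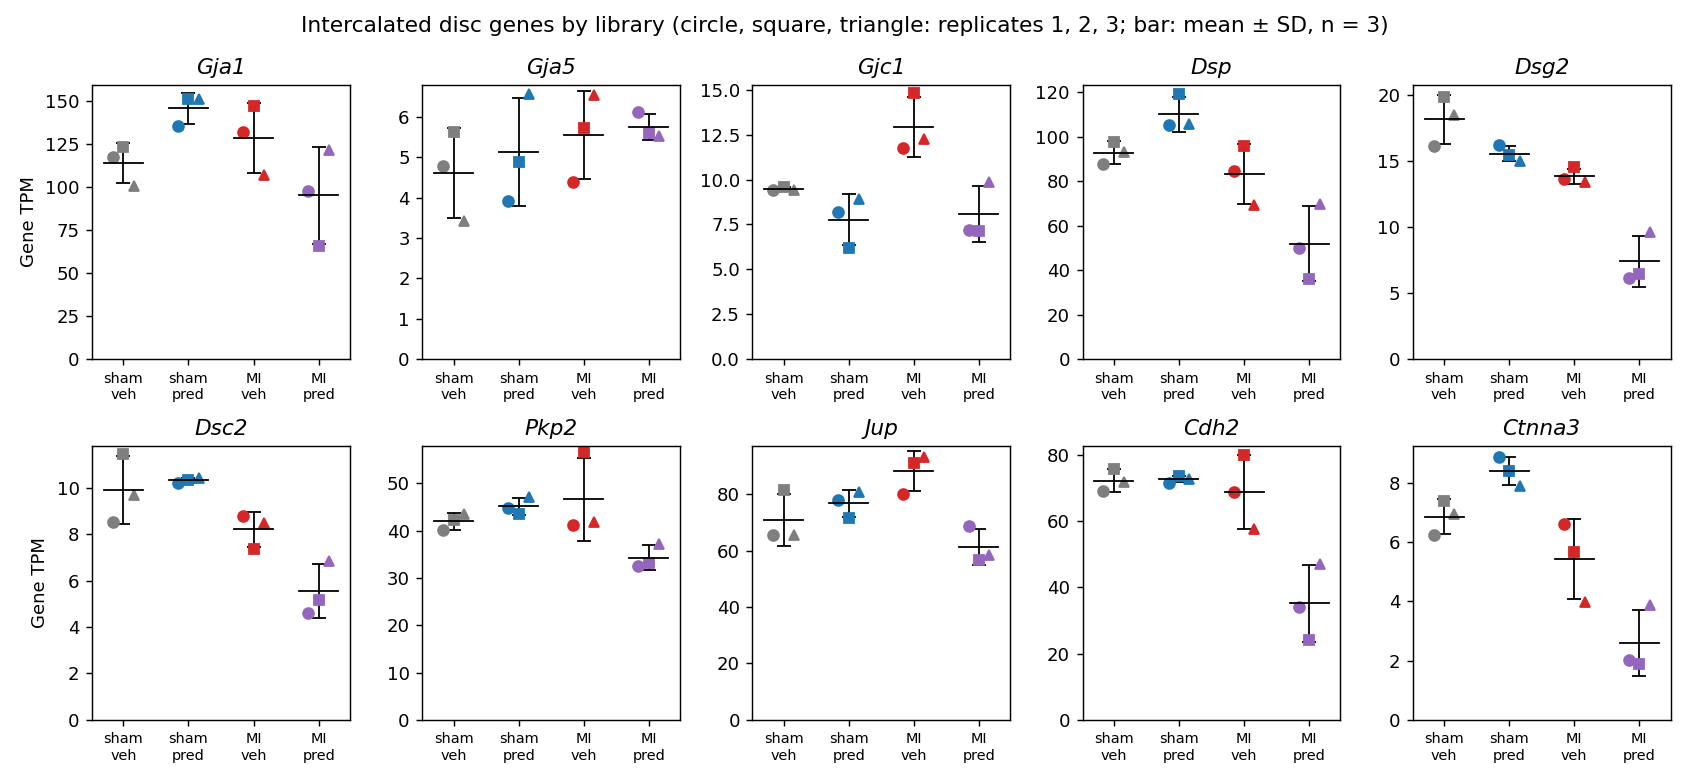
Gene TPM (vertical axes, from 0) of the 10 intercalated disc genes in the 12 libraries, by group of 3 mice. Points are mice, horizontal bars with whiskers are the mean ± SD, and the MI prednisone mice lie below all sham prednisone mice in *Gja1*, *Dsp*, *Dsg2*, *Dsc2*, *Pkp2*, *Jup*, *Cdh2* and *Ctnna3*.

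Among the disc genes of sham vehicle hearts, *Gja1* had the highest level at 114 ± 11.7 TPM (mean ± SD, n = 3, as for all levels of this form). It was followed by *Dsp* at 92.9 ± 4.97, and then by *Cdh2* at 72.3 ± 3.36 and *Jup* at 70.9 ± 9.18, whose ranges overlapped. *Pkp2* stood at 42.01 ± 1.77 and *Dsg2* at 18.2 ± 1.87 TPM. *Dsc2* and *Gjc1*, at 9.90 ± 1.47 and 9.47 ± 0.108, did not differ beyond their spread, and *Ctnna3* (6.85 ± 0.594) and *Gja5* (4.61 ± 1.11) were the lowest. In both MI groups the mean of *Jup* stood above that of *Dsp*, at 88.2 ± 7.06 and 83.3 ± 13.5 TPM in MI vehicle and 61.3 ± 6.45 and 51.96 ± 16.9 in MI prednisone, with overlapping ranges in each, and *Gja1* led at 129 ± 20.4 and 95.1 ± 28.1. In MI prednisone the ranges of the leading 5 genes overlapped from each to the next, as did those of *Gjc1*, *Dsg2*, *Gja5* and *Dsc2*, so that the order within each run is not resolved. *Ctnna3* was the lowest there, at 2.59 ± 1.11 TPM.

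*Gja1* (chromosome 10, 56377330 to 56402513 in the mouse assembly GRCm38) encodes the main connexin of working ventricular muscle. It measured 117, 124 and 101 TPM in the sham vehicle mice and 136, 151 and 151 in sham prednisone. It measured 132, 147 and 107 in MI vehicle and 97.9, 65.8 and 122 in MI prednisone. All 3 sham prednisone mice were above all sham vehicle mice, and all 3 MI prednisone mice were below all sham prednisone mice, while the MI groups overlapped. The fall in MI against sham under prednisone was -0.65 (SE 0.20, limma adjusted p = 0.0429). That call depended on most of the libraries, being lost without any 1 of 9 of the 12 mice. Mice outside the groups compared enter only through the shared spread, and without any 1 of them the change stayed at -0.65. The limma adjusted p was 0.0629, 0.0589 and 0.0567 without sham vehicle replicates 1, 2 and 3. It was 0.0864, 0.127 and 0.12 without sham prednisone replicates 1, 2 and 3, 0.05003 without MI vehicle replicate 1, and 0.096 and 0.142 without MI prednisone replicates 1 and 2. The other *Gja1* differences, 0.17 for MI under vehicle, -0.46 for prednisone in MI and 0.36 for prednisone in sham, were not called, though that for prednisone in MI passed without MI prednisone replicate 3 (limma adjusted p = 0.021).

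*Gjc1* (chromosome 11, 102799579 to 102819700), a connexin of the conduction system and of vascular smooth muscle, moved differently from *Gja1*. Its values were 9.40, 9.60 and 9.42 TPM in sham vehicle and 8.22, 6.18 and 8.90 in sham prednisone. In MI vehicle they were 11.7, 14.8 and 12.3, above every mouse of the other 3 groups, and in MI prednisone 7.18, 7.14 and 9.88. The MI vehicle mice were thus the high ones, and the MI prednisone mice overlapped both sham groups. The difference of MI vehicle from sham vehicle was 0.41 (limma adjusted p = 0.0867), close to the general shift of that comparison, and was -0.0092 after rescaling. In infarcted hearts prednisone was lower than vehicle (-0.63, limma adjusted p = 0.0119), but the difference was -0.21 and not called after rescaling. Under prednisone MI differed from sham by 0.048 (95% interval -0.30 to 0.40), which was not called.

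*Gja5* (chromosome 3, 96904693 to 97077416), a connexin of atrial muscle, Purkinje fibres and arterial endothelium, was low in all groups. It ranged from 3.42 to 5.63 TPM in sham vehicle and from 3.92 to 6.57 in sham prednisone. In MI vehicle it ranged from 4.40 to 6.54 and in MI prednisone from 5.52 to 6.12. It was not called in any comparison on the TPM scale, its changes lying between -0.066 (interaction) and 0.23 (MI under vehicle). After correction for transcript length it was the only member called higher, in prednisone against vehicle in MI (0.55, limma adjusted p = 0.0393), where 8.75% of all genes were called higher.

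*Dsp* (chromosome 13, 38151294 to 38198577) encodes desmoplakin, the plaque protein that anchors desmin filaments. It measured 87.8, 97.8 and 93.1 TPM in sham vehicle and 105, 119 and 106 in sham prednisone. It measured 84.8, 95.9 and 69.1 in MI vehicle and 50.2, 36.00 and 69.7 in MI prednisone. The sham prednisone mice were the highest of all 4 groups without overlap, and MI prednisone replicate 3 lay within the range of MI vehicle while replicates 1 and 2 lay below every other library. Under prednisone MI was lower than sham by 1.12 on the log2 scale (change -1.12, SE 0.20, limma adjusted p = 0.0047), and it kept the call without each of the 12 libraries in turn. In infarcted hearts prednisone was lower than vehicle (-0.71, limma adjusted p = 0.0184). That second call was lost without MI vehicle replicate 2 (0.0542), MI prednisone replicate 1 (0.0509) or MI prednisone replicate 2 (limma adjusted p = 0.0571).

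*Dsg2* (chromosome 18, 20558074 to 20604521) encodes desmoglein, a desmosomal cadherin of heart muscle. Its values were 16.2, 19.9 and 18.5 TPM in the sham vehicle mice, 16.2, 15.5 and 15.1 in the sham prednisone mice and 13.6, 14.5 and 13.5 in MI vehicle. In MI prednisone they were 6.12, 6.47 and 9.63. Both MI groups lay below all mice of their own sham group, and the MI prednisone mice lay below all other 9. The changes of MI against sham were -0.36 under vehicle (SE 0.15, limma adjusted p = 0.0966) and -1.004 under prednisone (SE 0.15, limma adjusted p = 0.00219). Without MI prednisone replicate 3 the change under vehicle passed as well (limma adjusted p = 0.0458). That mouse enters the comparison only through the shared spread, and the change stayed at -0.36. In infarcted hearts prednisone was below vehicle by 0.85 (change -0.85, limma adjusted p = 0.00243). For MI against sham under prednisone *Dsg2* was called on all 3 scales, at -0.93 after median-ratio rescaling and -0.60 after the length correction.

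*Dsc2* (chromosome 18, 20030633 to 20059554) encodes desmocollin, the partner cadherin of desmoglein. It measured 8.55, 11.5 and 9.68 TPM in sham vehicle and, with little spread, 10.2, 10.3 and 10.4 in sham prednisone. It measured 8.80, 7.35 and 8.49 in MI vehicle and 4.62, 5.18 and 6.87 in MI prednisone. The MI vehicle mice overlapped their sham group, whereas the MI prednisone mice were below all others. The change under prednisone was -0.80 (SE 0.15, limma adjusted p = 0.00546). In MI, prednisone was lower than vehicle by 0.50 (change -0.50, limma adjusted p = 0.0238), a call lost without MI prednisone replicate 1 (0.0958) or replicate 2 (limma adjusted p = 0.0683).

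*Pkp2* (chromosome 16, 16213318 to 16272712), which encodes the plakophilin that clusters desmosomal cadherins and desmoplakin, was steadier. Its sham values ran from 40.1 to 47.2 TPM over both treatments. It measured 41.2, 56.7 and 41.9 in MI vehicle, where replicate 2 was the highest of all libraries, and 32.4, 33.1 and 37.3 in MI prednisone. The MI prednisone mice were below every other mouse. The difference from sham prednisone, -0.39, missed the threshold (limma adjusted p = 0.0553), and it passed without MI vehicle replicate 1, 2 or 3 (0.0433, 0.0239 and 0.0278) or MI prednisone replicate 3 (0.0425). The MI vehicle mice enter that comparison only through the shared spread, and without any 1 of them the change stayed at -0.39. The difference from MI vehicle, -0.42, was called (limma adjusted p = 0.0232) but not without MI vehicle replicate 2 (0.0697), MI prednisone replicate 1 (0.0784) or MI prednisone replicate 2 (0.0636).

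*Jup* (chromosome 11, 100368958 to 100397763) encodes plakoglobin, a catenin found in both desmosomes and adherens junctions. It measured 65.6, 81.5 and 65.6 TPM in sham vehicle and 78.2, 71.6 and 80.9 in sham prednisone. It measured 80.1, 91.3 and 93.2 in MI vehicle and 68.7, 56.8 and 58.5 in MI prednisone. The MI vehicle group was the high one, overlapping sham vehicle and sham prednisone only through its lowest mouse. Prednisone against vehicle in MI gave -0.52 (SE 0.12, limma adjusted p = 0.00743), but -0.061 after rescaling. MI differed from sham by 0.32 under vehicle (limma adjusted p = 0.0785, and 0.0371 without MI vehicle replicate 1) and by -0.33 under prednisone (limma adjusted p = 0.0872), neither of which was called.

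*Cdh2* (chromosome 18, 16588877 to 16809246) encodes N-cadherin, the cadherin that holds the disc together. It lay in overlapping ranges in 3 groups, at 69.2, 75.9 and 71.9 TPM in the sham vehicle mice, 71.7, 73.7 and 72.7 in the sham prednisone mice and 69.00, 80.01 and 57.8 in MI vehicle. In MI prednisone it measured 33.98, 24.3 and 47.2. The MI prednisone mice were below all other 9, with replicate 2 the lowest. The change against sham prednisone was -1.08 (SE 0.20, limma adjusted p = 0.00498) and that against MI vehicle -0.99 (SE 0.20, limma adjusted p = 0.00394).

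*Ctnna3* (chromosome 10, 63430098 to 65003667) encodes alpha-T-catenin, a catenin of the area composita that binds plakophilin. It measured 6.22, 7.40 and 6.94 TPM in sham vehicle and 8.88, 8.40 and 7.91 in sham prednisone. It measured 6.62, 5.68 and 3.97 in MI vehicle and 2.02, 1.88 and 3.87 in MI prednisone. All sham prednisone mice were above all sham vehicle mice, and the MI prednisone mice were below every other mouse. The change of MI under prednisone, -1.43 (SE 0.21, limma adjusted p = 0.00216), was the largest among the 10 genes. It was -1.37 on rescaled values (limma adjusted p = 0.0079) and -1.19 after the length correction (limma adjusted p = 0.0218). In infarcted hearts prednisone differed from vehicle by -0.86 (limma adjusted p = 0.0102).

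**Figure D2:**
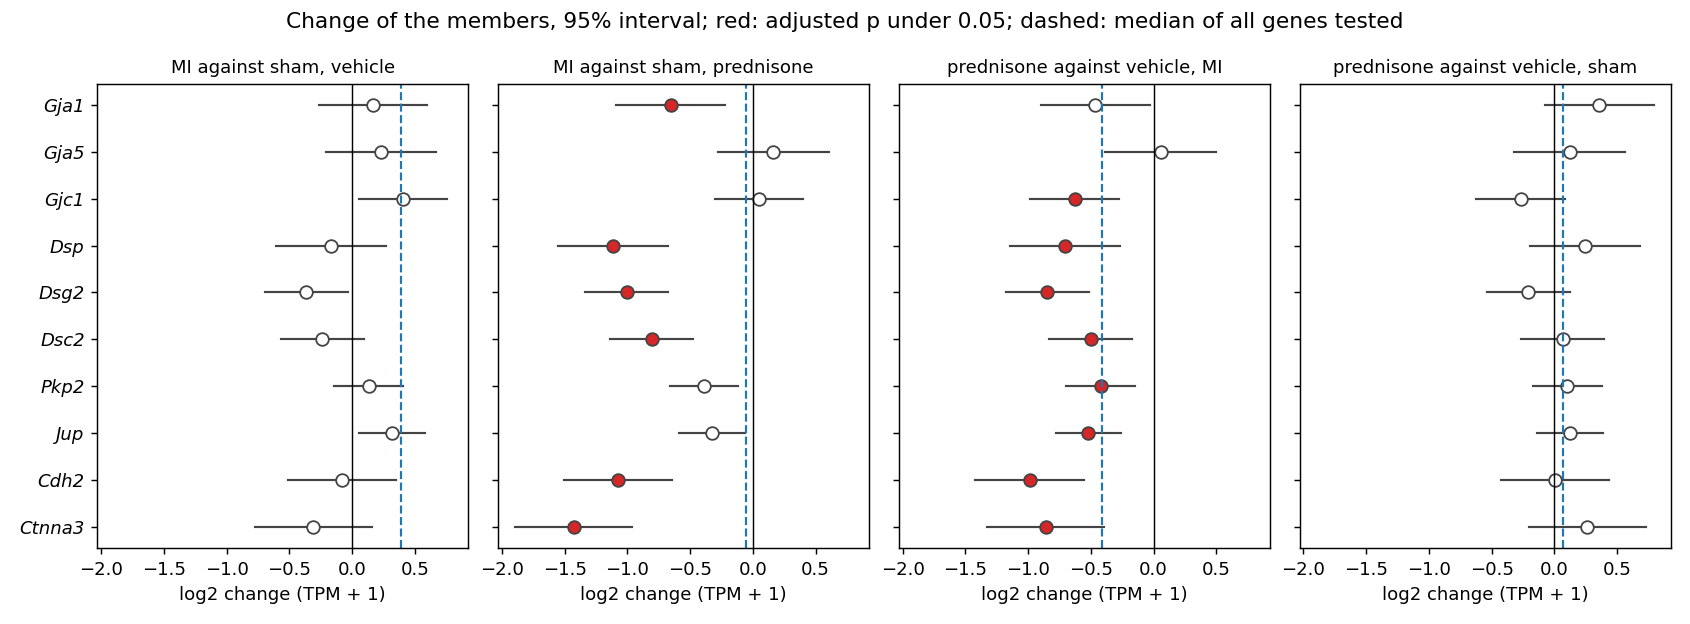
Log2 change (horizontal axis, log2(TPM + 1) scale) of each of the 10 genes in 4 comparisons, with its 95% interval; red points have a limma adjusted p under 0.05 and the dashed line is the median of all genes tested. In MI against sham under prednisone 6 points are red and left of the dashed line at -0.058, whereas in prednisone against vehicle in MI the dashed line itself stands at -0.41; after median-ratio rescaling none of the 8 red points of that comparison was called.

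Within infarcted hearts, 8 of the 10 genes were called lower in prednisone-treated than in vehicle-treated mice. The others were *Gja1*, lower but not called (-0.46, limma adjusted p = 0.0835), and *Gja5* (0.056). In this comparison 34.9% of all genes were called lower, and the median change of the 10 was -0.57 against -0.41 for all genes. In 7 of the 10 the groups did not overlap, against 42.6% of all genes. After median-ratio rescaling the median of the 10 was -0.15 and 0 were called by limma, against 13.8% of all genes lower, with 1 (*Gja5*, 0.45) at an unadjusted p under 0.05. Without MI prednisone replicate 1, or without replicate 2, 5 of the 10 were called on the TPM scale.

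In sham hearts prednisone moved no disc gene past the threshold. Of the 10 genes 0 were called by limma, against 0.114% of all genes, and 0 had an unadjusted p under 0.05. *Gja1* (0.36), *Dsp* (0.24) and *Ctnna3* (0.26) were higher in all 3 prednisone mice than in any vehicle mouse, and *Gjc1* (-0.27) was lower in all 3. Such a gap upward was seen in 15.6% of all genes and downward in 2.58%.

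The difference between the prednisone effect in MI and that in sham (the interaction) was called for *Dsp* (-0.95), *Jup* (-0.64), *Cdh2* (-0.997) and *Ctnna3* (-1.12), 4 of the 10 genes, with limma adjusted p-values from 0.0245 to 0.037. Of all genes 20.7% were called lower in the same test, where the median was -0.48 for all genes and -0.64 for the 10. After rescaling 0 of the 10 were called by limma, against 4.39% of all genes lower, and 0 had an unadjusted p under 0.05. With the length trend subtracted 0 were called by limma, against 1.13% lower, with 1 (*Gja5*) at an unadjusted p under 0.05. The number called on the TPM scale was 0 without sham vehicle replicate 1 or 3 or without sham prednisone replicate 1 or 3, and 1 without sham prednisone replicate 2 or MI prednisone replicate 1 or 2. It was 2 without MI vehicle replicate 2 and 8 without MI prednisone replicate 3.

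Transcript length moved with these changes across the whole table. In MI against sham under prednisone, the median change fell from 0.28 for genes with transcripts under 1000 bases, through 0.098, -0.14 and -0.35 for 1000 to 2000, 2000 to 4000 and 4000 to 8000 bases, to -0.51 for those of 8000 or more. In prednisone against vehicle in MI the same medians ran from -0.030 to -0.69. The 4 longest of the disc genes were *Dsp* (9330 bases, weighted by TPM), *Dsg2* (5734), *Dsc2* (4312) and *Cdh2* (4101), and all 4 fell in MI under prednisone, whereas *Gjc1* was the shortest (1723) and did not. *Ctnna3* (3553) was the gene that fell most and is of middling length. The part of transcript length, or of whatever moves with it, in the results was not tested beyond subtracting its trend from each library.

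With that trend subtracted, *Dsg2* (-0.60, limma adjusted p = 0.0353) and *Ctnna3* (-1.19, limma adjusted p = 0.0218) were the only disc genes still called in MI against sham under prednisone. *Dsc2*, *Cdh2* and *Dsp* kept their direction at -0.50, -0.79 and -0.60, with limma adjusted p-values of 0.0561, 0.0639 and 0.111. After median-ratio rescaling alone 5 of the 10 stayed called, all of the 6 but *Gja1* (-0.57, limma adjusted p = 0.175), against 14.6% of all genes. In MI against sham under vehicle, the length correction left *Dsg2* (-0.75) and *Dsc2* (-0.65) called lower, against 3.16% of all genes.

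**Figure D3:**
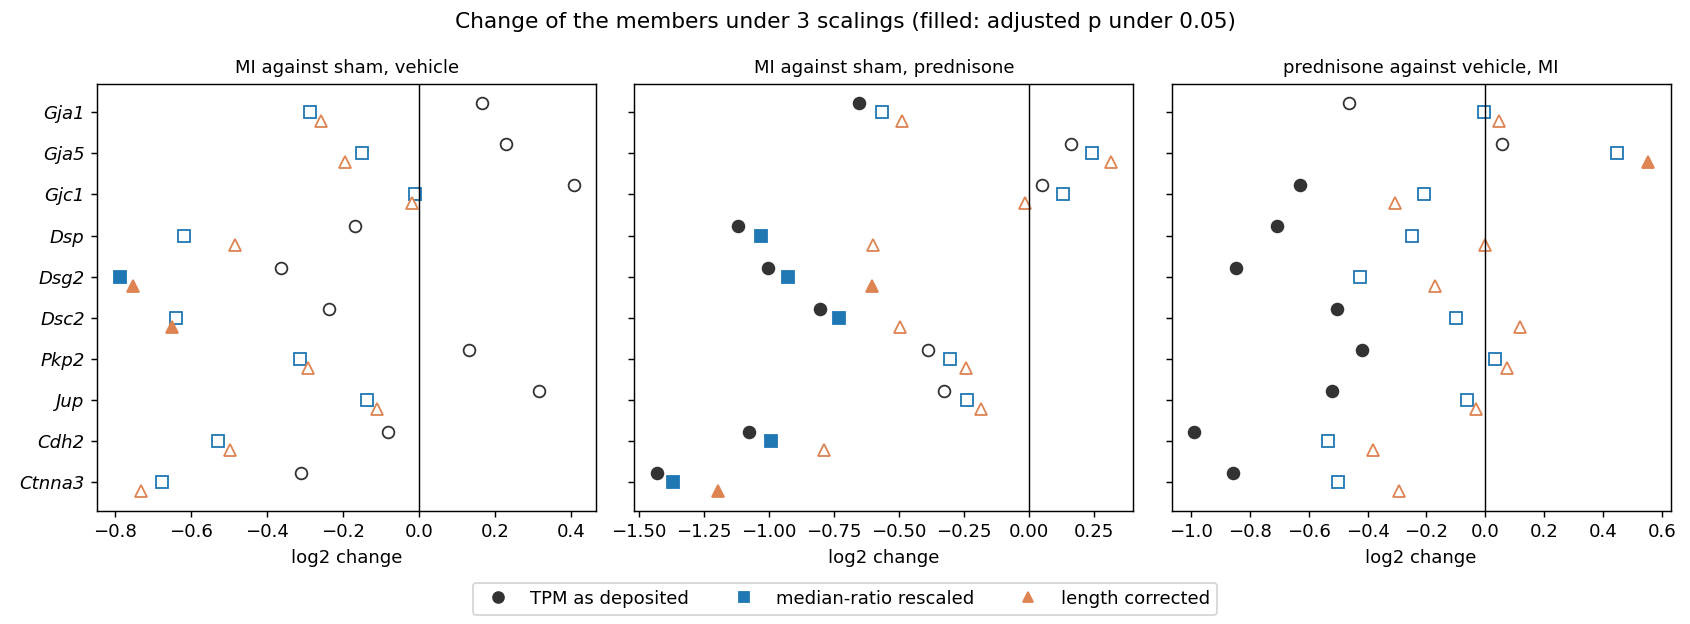
Log2 change (horizontal axes, which differ in range) of the 10 genes in 3 comparisons under TPM as deposited (circles), median-ratio rescaling (squares) and the transcript-length correction (triangles); filled symbols have a limma adjusted p under 0.05. In MI against sham under prednisone *Dsg2* and *Ctnna3* are filled on all 3 scales, whereas in prednisone against vehicle in MI no square is filled and *Gja1*, *Dsc2* and *Pkp2* change sign with the length correction.

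The table lists values for each transcript, and the fall of *Dsp* was not shared evenly by its main transcripts. Dsp-201 encodes the long form of desmoplakin, and Dsp-202 lacks 1797 bases (599 codons) of exon 23 of the 24 exons of Dsp-201, in the part of the protein that forms the coiled-coil rod. The gap in Dsp-202 spans positions 38191859 to 38193655 of chromosome 13 (GRCm38, forward strand). All 7761 bases of Dsp-202 lie within Dsp-201, so that reads tell them apart mainly at the junction and over the skipped stretch. The sequences around the junction are given below 5′ to 3′ from GENCODE M21 transcripts, with the 30 bases shared by both (chr13:38191829-38191858) in lower case. The 30 bases that follow are in capitals, continuing within exon 23 (chr13:38191859-38191888) in Dsp-201 and with exon 24 (chr13:38194696-38194725) in Dsp-202.
Dsp-201: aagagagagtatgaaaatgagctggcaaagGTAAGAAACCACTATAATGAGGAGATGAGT
Dsp-202: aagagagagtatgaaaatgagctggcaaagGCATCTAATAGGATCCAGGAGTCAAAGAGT

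Dsp-201 measured 75.8, 83.5 and 82.8 TPM in the sham vehicle mice, 94.6, 109 and 94.4 in the sham prednisone mice and 75.4, 87.9 and 63.1 in MI vehicle. In MI prednisone it measured 28.1, 18.5 and 62.3. Dsp-202 measured from 6.04 to 14.3 TPM in the 9 mice outside MI prednisone and 22.01, 17.5 and 7.46 in MI prednisone. The short form therefore took 43.9%, 48.6% and 10.7% of *Dsp* TPM in the 3 MI prednisone mice, and 8.42% to 14.7% in the 10 libraries other than MI prednisone replicates 1 and 2. The change of MI against sham under prednisone was -1.60 for Dsp-201 (SE 0.32, limma adjusted p = 0.00539 over 27769 transcripts) and 0.44 for Dsp-202 (limma adjusted p = 0.351). In prednisone against vehicle in MI Dsp-202 changed by 0.81 (limma adjusted p = 0.0642), and by 1.21 after rescaling (limma adjusted p = 0.0257). Dsp-201 changed there by -1.20 (limma adjusted p = 0.0164), and by -0.74 after rescaling, which was not called. MI prednisone replicates 1 and 2 also had lower mitochondrial shares (24.6% and 21.6%) than replicate 3 (35.9%) and lower summed TPM of the 10 genes (309 and 242 against 370.3), and the part of these in the shift was not tested.

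Uneven shares were also seen in *Jup*, *Dsc2* and *Cdh2*. Jup-209, a non-coding transcript of 3 exons at the upstream end of *Jup*, measured from 3.74 to 12.97 TPM in the 9 other mice and 0.538, 0.550 and 0.190 in MI prednisone. Its change under prednisone was -2.78 (SE 0.34, limma adjusted p = 3.95e-04, and -2.79 after rescaling). Jup-207, whose 441 bases all lie within the coding transcript Jup-201, measured 15.1, 9.24 and 0 TPM in MI prednisone and at most 0.568 elsewhere, so that its high values came from 2 mice only. The coding transcript lies on the reverse strand, and Jup-207 (chr11:100371059-100374125) lies toward its 3′ end and Jup-209 (chr11:100383315-100397763) at its 5′ end. RNA integrity values were not used here, and the part of RNA quality in the Dsp-202, Jup-207 and Jup-209 values and in the length trend was not tested. Over all 12 libraries together Jup-209 and Jup-207 hold under 10% of the gene's TPM, although Jup-209 reached 15.9% and Jup-207 21.95% in single libraries, and both were chosen after their values were seen. Jup-201 itself did not pass the threshold in MI against sham under prednisone (-0.34, limma adjusted p = 0.0683).

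Dsc2-203 is annotated as a target of nonsense-mediated decay. It measured from 2.20 to 3.85 TPM in the 9 other mice and was listed at 0 in MI prednisone replicate 1, with 0.64 and 0.63 TPM in replicates 2 and 3. All 3 MI prednisone mice were below every other mouse, and the change under prednisone was -1.39 (limma adjusted p = 0.00267, -1.39 after rescaling). The coding Dsc2-201 changed less, by -0.62 (limma adjusted p = 0.0373), and the coding Dsc2-202 was not called (-0.36). For *Cdh2*, the full-length Cdh2-201 measured 8.09, 5.15 and 10.1 TPM in MI prednisone against 24.1, 22.4 and 23.9 in sham prednisone, a change of -1.52 (limma adjusted p = 7.94e-04). The shorter Cdh2-202 changed by -0.88 (limma adjusted p = 0.00931) and took 75.96%, 78.4% and 78.5% of *Cdh2* TPM in MI prednisone, above its 66.4% to 73.1% in the 9 other mice. The differences between transcripts of a gene were not themselves tested.

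**Figure D4:**
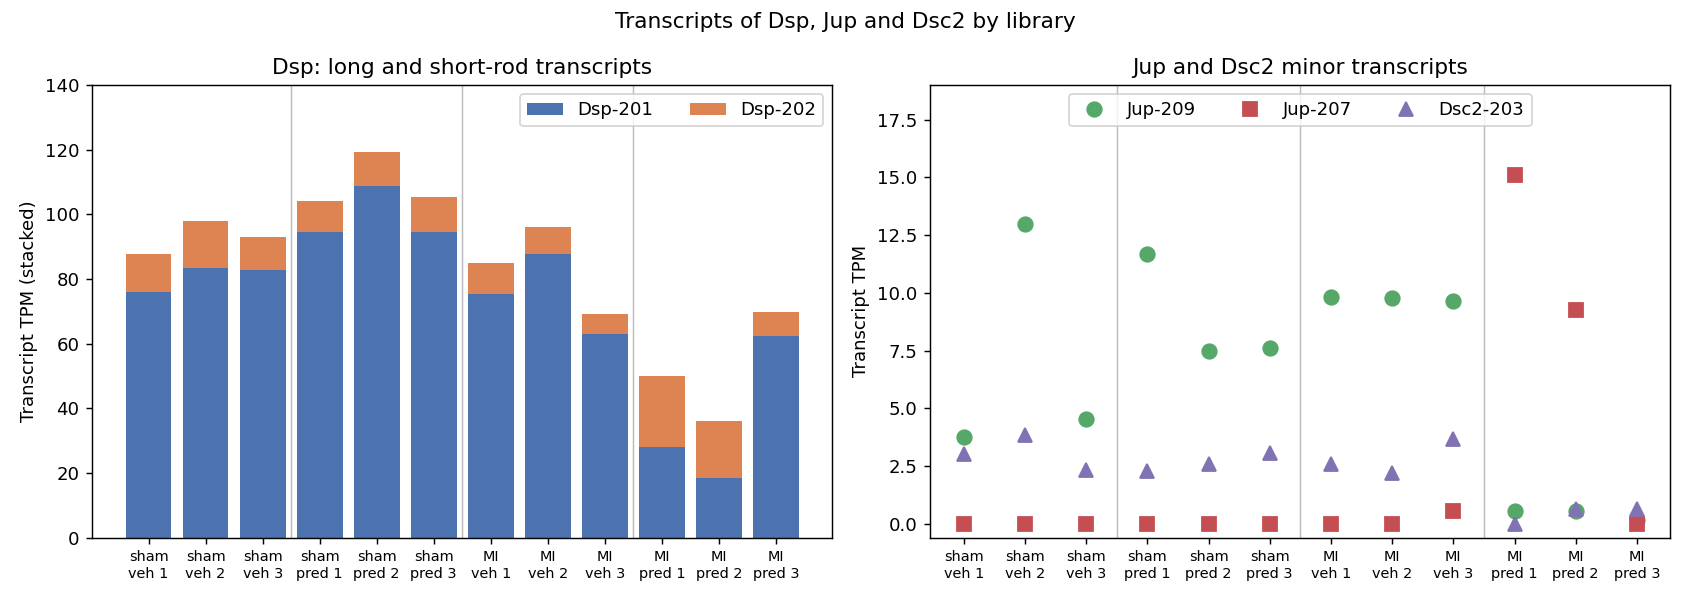
Transcript TPM (vertical axes) in the 12 libraries, 3 per group. Left, Dsp-201 and Dsp-202 stacked, with Dsp-202 taking 43.9% and 48.6% in MI prednisone replicates 1 and 2; right, Jup-209 and Dsc2-203, lowest in all 3 MI prednisone mice, and Jup-207, above 1 TPM in 2 of them.

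Of the 20 disc gene transcripts that passed the filter, 9 were called lower in MI against sham under prednisone, against 15.6% of all transcripts tested. In the interaction 5 of the 20 were called lower, against 15.8%. In every library Gja1-201 took at least 95.4% of its gene's TPM, Dsg2-201 at least 96.00% and Pkp2-201 at least 98.3%, and Gja5-201 took from 81.1% upward. For *Ctnna3*, Ctnna3-202 took 78.05% to 97.9% and fell by 1.33 (change -1.33, limma adjusted p = 0.00179). For *Gjc1*, the transcripts Gjc1-201 and Gjc1-202 encode the same coding length of 1188 bases and differ upstream. Gjc1-201 was lower with prednisone in MI (-0.87, limma adjusted p = 0.00469, but -0.48 and not called after rescaling), and Gjc1-202 did not pass (-0.0082, limma adjusted p = 0.985).

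Promoter sequence (the 250 bases before the start, RefSeq, GRCm38.p6) was at hand for 5 of the 10 genes, with 7 starts in all because *Ctnna3* has 3. They were searched on both strands for letters bound by the glucocorticoid receptor and by 2 factors of heart muscle and injury. The full receptor element, AGAACA followed after any 3 bases by TGTTCT, was in 0 of the 7 and in 0.00913% of 32851 mouse promoters. The element's first 6 letters, AGAACA, which it contains, were in 1 of the 7, at a downstream *Ctnna3* start, and in 16.1% of all. The AP-1 letters TGAGTCA were in 1 of the 7 (4.46% of all) and the GATA letters AGATAA in 1 (9.99% of all), both in *Gja1*. The *Gja1* promoter is shown since it was the only one of the 5 genes with more than 1 kind of match, with the matches in capitals, the GATA letters on the reverse strand (chr10:56377050-56377299, forward strand). A match is only a run of letters in this window, and none of these data measured binding.
Gja1 promoter: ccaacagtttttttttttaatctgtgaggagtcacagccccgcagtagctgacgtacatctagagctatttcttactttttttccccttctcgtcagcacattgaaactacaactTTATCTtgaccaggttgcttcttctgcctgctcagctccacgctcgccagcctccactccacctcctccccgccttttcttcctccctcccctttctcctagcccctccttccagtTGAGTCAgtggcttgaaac

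Other genes of the disc were read in 5 further lists, chosen like the 10 with earlier results of these data known. Of 11 other adherens junction genes, 4 fell in MI against sham under prednisone: *Vcl* (vinculin, -0.98), *Ctnnd1* (p120 catenin, -0.78), *Ctnna1* (alpha-E-catenin, -0.65) and *Tln2* (talin, -0.45), against 14.1% of all genes. None of the 11 rose on the TPM scale, and after rescaling *Arvcf* (0.31) was called higher and *Tln2* no longer lower. After the length correction 2 were called lower, *Vcl* (-0.60) and *Ctnnd1* (-0.43), and 2 higher, *Arvcf* (0.51) and *Ctnnb1* (0.36), against 7.98% and 4.93% of all genes. *Vcl* measured 22.01, 23.7 and 23.8 TPM in sham prednisone and 9.97, 8.92 and 15.99 in MI prednisone, without overlap. *Ctnnb1* (beta-catenin) was not called in that comparison (0.20), but rose in MI under vehicle (0.52, limma adjusted p = 0.0228, 0.07 after rescaling), together with *Ctnnd1* (0.58) and *Tln1* (0.77), 3 of 11 against 15.1% of all genes. After rescaling none of these 3 was called.

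Of 10 scaffold and channel partners of the disc, 7 were lower in MI against sham under prednisone, against 14.1% of all genes, and none were higher, with a list median of -0.49. The 6 with the largest changes were *Fgf13* (a fibroblast growth factor homologous factor, -1.38), *Ank2* (-1.11) and *Ank3* (-1.05), both ankyrins that hold membrane proteins in place, *Dlg1* (a membrane scaffold, -0.85), *Bves* (a popeye domain protein, -0.56) and *Tjp1* (a scaffold that binds connexins, -0.41). The other called gene was *Cxadr* (an adhesion receptor, -0.38). After the length correction 4 of the 10 were still called, against 7.98% of all genes: *Fgf13* (-1.59), *Ank2* (-1.02), *Ank3* (-0.71) and *Dlg1* (-0.60). In MI under vehicle 3 of the 10 rose, against 15.1% of all genes: *Tmem43* (0.87), *Clmp* (0.76) and *Cxadr* (0.42), of which *Tmem43* was called after rescaling, against 3.24% of all genes.

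A further list, named for the attachment of the disc to filaments, also held genes of the sarcomere. Of its 10 genes, 3 fell under prednisone in MI against sham, against 14.1% of all genes. These were *Mtus2* (-1.50), *Ldb3* (a Z-disc protein, -0.54) and *Tmod1* (which caps actin filaments, -0.48). *Mtus2* measured 45.9, 45.9 and 51.4 TPM in sham prednisone and 14.1, 12.3 and 24.5 in MI prednisone. It stayed called on the rescaled (-1.41) and length-corrected (-1.22) values, while *Ldb3* and *Tmod1* were called on neither. *Des* (desmin), the filament that desmosomes hold, was not called (0.11). In MI under vehicle 1 of the 10, *Xirp2* (0.69), rose, against 15.1% of all genes, and it was called neither after rescaling nor after the length correction.

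Of 20 other connexins and pannexins only 4 passed the filter on low values. *Gja4*, a connexin of arterial endothelium, measured 4.62, 5.61 and 5.03 TPM in sham vehicle and 9.23, 18.6 and 14.3 in MI vehicle, a rise of 1.26 (limma adjusted p = 0.0101), which passed also under prednisone (0.74) and, in both, after rescaling (0.85 and 0.83), but in neither after the length correction (0.84, limma adjusted p = 0.0519, and 0.67, limma adjusted p = 0.0721). Of 6 general endothelial markers 5 rose in MI under vehicle too, from *Cdh5* (0.46) to *Cldn5* (0.91), against 15.1% of all genes. After rescaling 0 of the 6 were called by limma there, and their part in the *Gja4* values was not tested. *Panx1*, a membrane channel that releases ATP, measured 1.03, 1.58 and 1.58 TPM in sham vehicle and 4.03, 6.71 and 11.9 in MI vehicle, a rise of 1.74 (limma adjusted p = 0.0119, 1.37 after rescaling). *Gja3* fell in MI under prednisone (-0.83, -0.70 and not called after the length correction) and *Gjb5*, near 1 TPM, rose in MI under vehicle (0.75). So the endothelial connexin and the pannexin were higher in MI vehicle, where *Gja1* was not called.

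Of 12 other desmosomal genes, those of skin and other epithelia, 3 passed the filter and 0 were called by limma in MI against sham under either treatment, with 0 at an unadjusted p under 0.05. *Perp* was the only one at a level like the disc genes, from 46.1 to 62.2 TPM over the 12 libraries. *Pkp3* reached 8.34 TPM in MI vehicle replicate 3 and at most 1.32 in the other 11 libraries. *Ppl* was lower with prednisone in MI (-0.70, limma adjusted p = 0.0426, -0.36 and not called after rescaling).

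**Figure D5:**
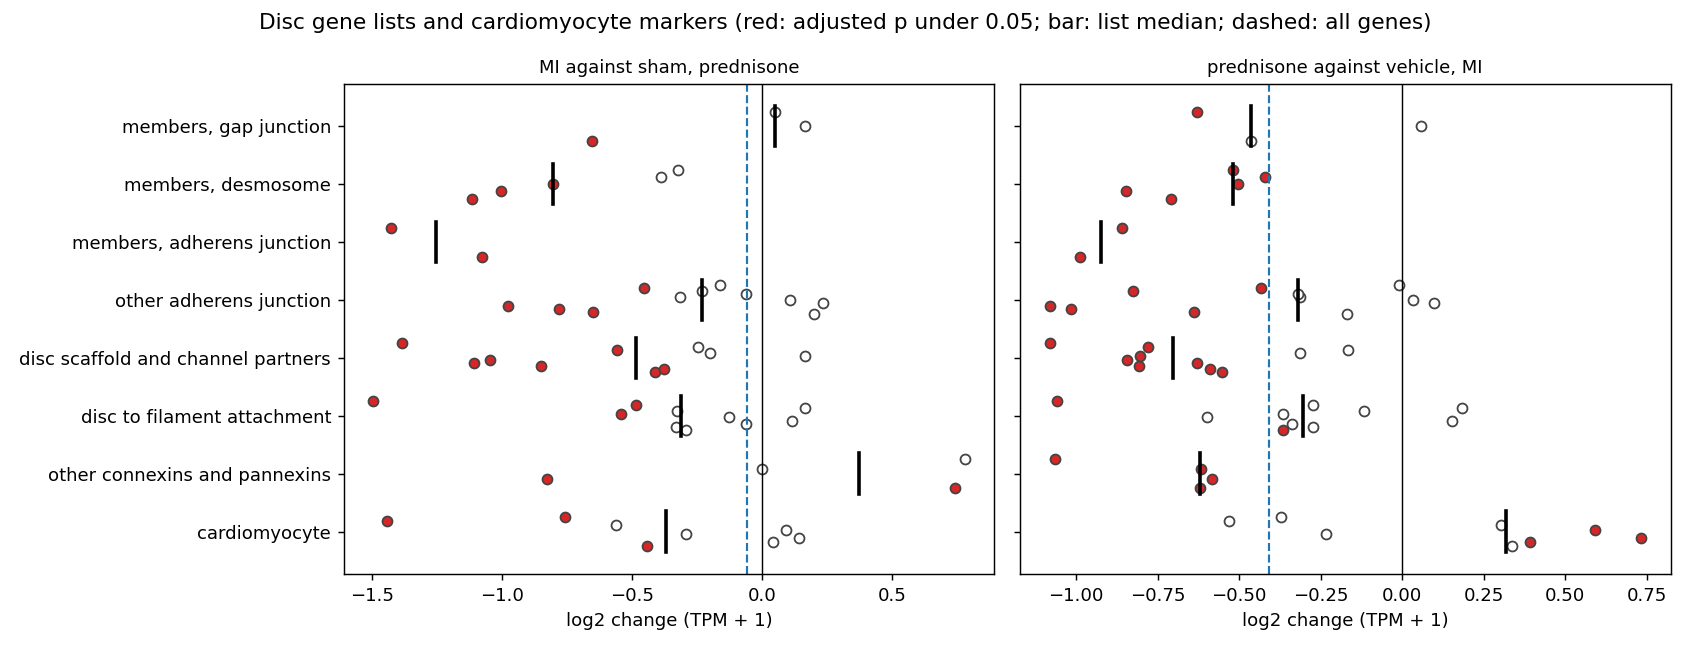
Log2 change (horizontal axes, log2(TPM + 1)) of the disc genes by junction, of 4 further disc gene lists and of 8 cardiomyocyte markers, in MI against sham under prednisone and in prednisone against vehicle in MI. Points are genes, red where the limma adjusted p is under 0.05, bars are list medians and the dashed line is the median of all genes; the scaffold and channel list has 7 of 10 red points at left and 8 of 10 at right, of which 5 and 1 were called after rescaling.

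In prednisone against vehicle in infarcted hearts the lists were lower along with the general shift of -0.41. Called lower were 5 of 11 adherens junction genes, *Vcl* (-1.08), *Ctnnd1* (-1.01), *Tln1* (-0.82), *Ctnna1* (-0.64) and *Tln2* (-0.43). So were 8 of 10 scaffold and channel genes, from *Fgf13* (-1.08) and *Ank3* (-0.84) to *Tjp1* (-0.55), and 2 of 10 genes of the filament list, *Mtus2* (-1.06) and *Nrap* (-0.37). Of all genes 34.9% were called lower, so that the share of the filament list lay below that of all genes. After rescaling 3, 1 and 0 of them were called lower, against 13.8% of all genes, and *Arvcf* (0.50), *Des* (0.62) and *Csrp3* (0.65) were called higher. All 4 tested connexins and pannexins were lower, from *Panx1* (-1.07) to *Gja3* (-0.58), and none of the 4 after rescaling. After the length correction 1 of the 4 was called lower, against 7.69% of all genes. Of the 15 adherens, scaffold and filament genes called lower, *Ctnnd1* was the only one also called lower after the length correction (-0.37, and -0.57 rescaled), against 7.69% of all genes. In sham hearts 0 genes of the 5 lists were called with prednisone by limma, and 4 had an unadjusted p under 0.05.

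Markers of heart muscle moved unevenly. The summed TPM of 8 cardiomyocyte markers was 31882 to 33667 in sham vehicle, 32826 to 37855 in sham prednisone, 22585 to 28270 in MI vehicle and 32675 to 35380 in MI prednisone. The sum was thus lowest in MI vehicle, and in MI prednisone it lay within the range of the sham groups. It is weighted to high genes such as *Myl2* (7857 to 15609 TPM), and *Ryr2* (23.0 to 92.5 TPM) hardly enters it. The part of cardiomyocyte content in the disc gene values was not tested. In MI against sham under prednisone 3 of the 8 markers fell, against 14.1% of all genes: *Ryr2* (the calcium release channel, -1.44), *Pln* (-0.76) and *Myh6* (-0.44). *Tnnt2* (0.041), *Tnni3* (0.14), *Myl2* (0.092), *Actc1* and *Ttn* were not called. *Ttn* was lower in every MI prednisone mouse (21.6, 27.3 and 30.7 TPM) than in any sham prednisone mouse (39.3, 48.9 and 31.6). *Actc1* overlapped, at 4327, 3797 and 5298 against 5237, 5342 and 5735 TPM. The median of the 8 was -0.37, against -0.058 for all genes, and 1 was called lower after rescaling. In prednisone against vehicle in MI 3 of the 8 were called higher and 0 lower, against 2.5% of all genes higher. Their median there was 0.32, against -0.41 for all genes, and 3 were called higher after the length correction, against 8.75%. In MI under vehicle 3 were called lower after rescaling and 4 after the length correction, against 3.22% and 3.16%. Of 5 atrial markers, *Myl7*, *Myl4* and *Sln* rose with prednisone in MI (2.04, 1.98 and 2.03), against 2.5% of all genes, and were called after rescaling and the length correction too. *Myl7* (atrial light chain) measured 409, 64.04 and 450 TPM in MI vehicle and 1036, 1015 and 793 in MI prednisone, with 195 to 661 in the sham groups. This is the comparison in which *Gja5*, an atrial connexin, was called higher after the length correction. Between MI and sham under prednisone 1 of the 5 rose, *Nppa* (1.46), a natriuretic peptide gene, which made up most of their summed TPM of 4358 to 6191 in MI prednisone and 1999 to 2709 in sham prednisone, while *Bmp10* was not called (-0.35). The part of the atrial share of each sample in the results was not tested.

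Markers of other cells differed between the groups as well. Summed TPM of 7 fibroblast markers was 869 to 1134 in MI vehicle and 323 to 562 in the other groups, and that of 5 macrophage markers was 508 to 1195 in MI vehicle and 219 to 474 elsewhere. Smooth muscle and arterial endothelial cells, which also carry *Gjc1* and *Gja5*, had their highest mean marker sums in MI vehicle too (95.3 to 173 and 31.2 to 48.1 TPM). Of 6 general endothelial markers 5 rose in MI under vehicle, against 15.1% of all genes, and 3 fell in MI under prednisone, against 14.1%. Their sums were 211 to 307 TPM in MI vehicle and 156 to 218 in the other groups. After rescaling 0 of the 6 were called by limma under vehicle, and 2 had an unadjusted p under 0.05. Under prednisone 1 was then called lower and 1 higher, and after the length correction 0 lower and 1 higher. Of 6 mesothelial and epithelial markers, *Krt8* reached 59.4 TPM in MI vehicle replicate 3 and 51.9 in MI prednisone replicate 2, against at most 7.29 elsewhere, *Krt19* 36.7 and 39.6 against at most 13.99, and *Epcam* 7.99 and 4.85 against at most 0.529. The mesothelial markers *Wt1* (10.1 TPM), *Upk3b* (47.6) and *Msln* (43.0) were also highest of all libraries in MI vehicle replicate 3. With prednisone in MI *Wt1* (-1.12), *Upk3b* (-1.67) and *Msln* (-1.45) fell. In MI prednisone replicate 2 *Wt1* (4.43 TPM) and *Upk3b* (11.8) lay below all sham prednisone mice, while *Msln* (17.4) lay above all of them. Adipocyte markers varied widely within groups, their 3-gene sum running from 3.51 to 428 TPM in MI vehicle and from 55.4 to 189 in MI prednisone, and *Adipoq* was highest in MI vehicle replicate 3 (177) and MI prednisone replicate 2 (88.4). Epithelia express *Dsp*, *Jup* and *Pkp2* too. MI prednisone replicate 2, with high keratin and *Epcam* values, had the lowest *Dsp* (36.00 TPM) and *Jup* (56.8) of all libraries. MI vehicle replicate 3, with high values of them too, had the highest *Jup* (93.2), with *Dsp* at 69.1. *Pkp2* measured 33.1 and 41.9 TPM in these libraries, in the same order, and was lowest in MI prednisone replicate 1 (32.4). The part of these other cell types in the results was not tested. Of 6 conduction markers 3 passed the filter, and *Irx3*, which made up most of their sum, measured 9.21, 9.39 and 9.47 TPM in MI prednisone against 9.60 to 16.7 elsewhere. It was lower than in MI vehicle (-0.46, limma adjusted p = 0.042, but -0.041 after rescaling). *Cntn2* ran from 1.06 to 2.14 TPM, and its MI prednisone mice overlapped the other groups. *Hcn4* measured 1.00, 1.00 and 1.97 TPM in MI prednisone, 1.82, 1.47 and 1.47 in MI vehicle and 2.06, 2.11 and 2.60 in sham prednisone. After the length correction 1 of the 3 tested markers was called higher with prednisone in MI, against 8.75% of all genes.

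Over the 12 libraries, after median-ratio rescaling, 8 of the disc genes varied together, with Pearson's r between 0.66 and 0.97 over their 28 pairs. *Gja5* stood apart (r between -0.30 and 0.22 with the others), as did *Gjc1* (0.19 to 0.52 with the remaining 8). These correlations describe 12 points that share 4 group means and library composition. Among tested genes whose mean was 5 TPM or more, the 3 most like *Dsp* were *Rnf128* (r = 0.995), *Prkaa2* (r = 0.991) and *Cmya5* (r = 0.990). Those most like *Ctnna3* were *Asb15* (r = 0.993), *Dip2c* (r = 0.991) and *Ptgr2* (r = 0.989), and those most like *Cdh2* were *Snx13* (r = 0.990), *Thap12* (r = 0.988) and *Fbxo32* (r = 0.987). The 3 nearest *Dsg2* were *Mylk4* (r = 0.985), *Arhgef17* (r = 0.985) and *Fto* (r = 0.983), and those nearest *Dsc2* were *Ppm1l* (r = 0.985), *Acadm* (r = 0.982) and *Mut* (r = 0.979).

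The 3 nearest *Pkp2* were *Nrap* (r = 0.981), *Gorasp1* (r = 0.978) and *Inpp5a* (r = 0.974), of which *Nrap* anchors filaments at the disc. *Gja1* was most like *Fbxo40* (r = 0.975), *Rai2* (r = 0.965) and *1110002E22Rik* (r = 0.959), and *Jup* most like *Cpe* (r = 0.954), *Arl1* (r = 0.911) and *Pcsk6* (r = 0.905). The values for *Gja5* were lower, with *Zcchc17* (r = 0.898), *BC029722* (r = 0.857) and *Myl1* (r = 0.849) nearest. *Gjc1* was nearest to *Serpinb6b* (r = 0.877), *Yaf2* (r = 0.862) and *Abhd4* (r = 0.854). The genes nearest *Dsp*, *Cdh2* and *Ctnna3* thus followed them more closely over these 12 libraries than any gene followed *Gja5* or *Gjc1*.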

How the data were processed

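Per the labels' protocols, the libraries were stranded mRNA libraries. The authors deposited a single table of TPM per transcript (105129 rows), and each library sums to 1000000. Trimmomatic, HISAT2, kallisto and the build mm10 are named in the submitters' processing notes, without versions or roles. TPM of all rows with the same symbol was added up. A gene entered the test when 3 or more of 12 libraries reached 1 TPM. The test was limma 3.58.1 in R 4.3.3, with a mean-variance trend, on log2(TPM + 1), with 4 group means, 8 residual degrees of freedom and Benjamini-Hochberg adjustment over 13158 genes or 27769 transcripts. The fit was tested on simulated data. TPM carries no depth.

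Annotation was GENCODE M21 (GRCm38): 94.7% of rows matched by versioned identifier and 98.7% without the version, and 45 of the 46 disc gene rows matched exactly (Dsp-201 by unversioned identifier). Lengths were available for 99.8% of tested genes. No protein sequences were used here. The alternatives were median-ratio rescaling, no filter, a pseudocount of 0.1, only the groups compared, the replicate number as a block, each mouse left out, the most abundant transcript, leaving out rows of mitochondrial genes, their nuclear copies and globins, and a transcript-length correction (loess, span 0.5), alone or with the block.

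The 10 genes, the further lists and the tests were chosen with earlier results of these data known. Named were all 10 genes, up to 6 called genes per list and comparison with the largest changes, transcripts with at least 10% of their gene's TPM, the 3 most correlated genes, and markers by list; any other gene or transcript was named after its values were seen. Some genes of the scaffold and channel list are not reported here, and its counts leave them out.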

Additional observations from a re-analysis of the deposited data

Results flagged for a closer look

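The prednisone effect in MI differed from that in sham (limma interaction, adjusted p under 0.05) for 4 of the 10 disc genes, against 20.7% of all genes lower. These were *Dsp* by -0.95, *Jup* by -0.64, *Cdh2* by -0.997 and *Ctnna3* by -1.12 on the log2 scale. After rescaling, and after the length correction, 0 of the 10 were called by limma. Of the disc gene transcripts, 5 of 20 tested met the same rule on deposited TPM, against 15.8% of all transcripts lower: Cdh2-201 (-1.49), Dsc2-203 (-1.29), Dsp-201 (-1.49), Jup-201 (-0.60) and Jup-209 (-3.37). Jup-209 was the transcript that also passed after median-ratio rescaling (-2.98, limma adjusted p = 0.00452).

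Of 38 tested genes of the further lists, 12 differed too, against 20.7% of all genes lower in the same test. In the adherens junction list these were *Ctnna1* (-0.71), *Ctnnd1* (-1.36), *Vcl* (-1.31), *Tln1* (-1.002) and *Tln2* (-0.52). Among scaffold and channel partners they were *Tjp1* (-0.68), *Cxadr* (-0.79), *Dlg1* (-1.15), *Ank3* (-0.98), *Clmp* (-1.01) and *Fgf13* (-1.01), and in the filament list *Mtus2* (-1.26). All 21 differences are negative, as is the median of all genes in this test (-0.48). After rescaling 1 of the 38 was called, *Ctnnd1* (-0.84), against 4.39% of all genes lower, and after the length correction again *Ctnnd1* alone (-0.61), against 1.13%.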

How the results depend on the processing

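On deposited TPM limma called 2100 genes in MI against sham under vehicle, 2213 in MI against sham under prednisone, 4917 for prednisone in MI, 15 for prednisone in sham and 2797 for the interaction, of which 0, 6, 8, 0 and 4 were disc genes. Given next, as genes called, disc genes called and log2 changes that turned sign, are the values that moved; their causes were not tested. After median-ratio rescaling, MI against sham under vehicle gave 850 genes, 1 of the 10 disc genes, *Gja1* at -0.29, *Gja5* at -0.15, *Gjc1* at -0.0092, *Pkp2* at -0.31 and *Jup* at -0.14; MI against sham under prednisone gave 3344 genes; prednisone in MI gave 0 of the 10 disc genes, *Pkp2* at 0.032 and 4 disc gene transcripts; prednisone in sham gave *Dsc2* at -0.0095 and *Cdh2* at -0.073; the interaction gave 1141 genes, 0 of the 10 disc genes, *Gja5* at 0.39, *Gjc1* at 0.14, *Pkp2* at 0.011 and 1 disc gene transcript. Without a filter on low genes, MI against sham under vehicle gave 1068 genes; the interaction gave 1 of the 10 disc genes. In a fit of only the groups compared, MI against sham under vehicle gave 2 genes; prednisone in MI gave 808 genes and 0 of the 10 disc genes. With the mouse number as a replicate block, MI against sham under vehicle gave 1056 genes; prednisone in sham gave 7 genes; the interaction gave 2 of the 10 disc genes. Without mitochondrial, nuclear-copy and globin rows, MI against sham under vehicle gave *Gja1* at -0.072 and *Pkp2* at -0.10; MI against sham under prednisone gave 3715 genes and *Gjc1* at -0.025; prednisone in MI gave 5 of the 10 disc genes; prednisone in sham gave *Dsc2* at -0.0044 and *Cdh2* at -0.068; the interaction gave 0 of the 10 disc genes and *Gja5* at 0.073. After the transcript-length correction, MI against sham under vehicle gave 814 genes, 2 of the 10 disc genes, *Gja1* at -0.26, *Gja5* at -0.20, *Gjc1* at -0.018, *Pkp2* at -0.29 and *Jup* at -0.11; MI against sham under prednisone gave 2 of the 10 disc genes and *Gjc1* at -0.016; prednisone in MI gave 2158 genes, 1 of the 10 disc genes, *Gja1* at 0.046, *Dsc2* at 0.12 and *Pkp2* at 0.073; prednisone in sham gave *Dsc2* at -0.037 and *Cdh2* at -0.091; the interaction gave 264 genes, 0 of the 10 disc genes, *Gja5* at 0.51, *Gjc1* at 0.0014, *Dsg2* at 0.15, *Dsc2* at 0.16 and *Pkp2* at 0.052. With the replicate block plus the length correction, where each gene had the same change as with the length correction alone, MI against sham under vehicle gave 76 genes; MI against sham under prednisone gave 1013 genes and 1 of the 10 disc genes; prednisone in MI gave 1459 genes and 0 of the 10 disc genes; prednisone in sham gave 6 genes; the interaction gave 104 genes and 0 of the 10 disc genes. From the most abundant transcript of each gene, MI against sham under prednisone gave *Gjc1* at -0.36; prednisone in sham gave *Cdh2* at -0.037.

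Leaving out each mouse in turn gave 120 to 5631 genes and 0 to 1 disc genes in MI against sham under vehicle, 1027 to 3971 and 5 to 7 under prednisone, 3245 to 6274 and 5 to 9 for prednisone in MI, 4 to 18 and 0 for prednisone in sham, and 1111 to 4520 and 0 to 8 for the interaction. Signs that turned were those of *Gjc1* (-0.090 to 0.14) in MI under prednisone, of *Cdh2* (-0.19 to 0.039) and *Pkp2* (-0.014 to 0.21) in MI under vehicle, and of *Gja5* for prednisone in MI (-0.077 to 0.16) and the interaction (-0.21 to 0.098). In sham they were those of *Cdh2* (-0.022 to 0.043), *Dsc2* (-0.026 to 0.17) and *Gja5* (-0.041 to 0.27). Same-numbered mice did not deviate together (mean r from -0.37 to 0.0028 over 4 comparisons), so the numbers were not taken to pair them. Under the alternatives other than leaving out a mouse, 314 values of single disc genes kept their sign and their side of the threshold, 67 kept the sign and lost the call, 8 gained a call and 51 turned sign. Depth is not known from TPM, so counting error at low genes such as *Gja5* and *Ctnna3* could not be given.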
